A study of Rattus norvegicus with 12 samples.

Results

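Muc5b, Loxhd1, Tecta, Fat2, Pkd1l3 and Sult1c2a are 6 genes of unrelated function that were brought together because they were all but absent from whole skeletal muscle of the rat and high in isolated mitochondria. They were selected on their counts: 0 to 2 summed over the muscle libraries, and a rise in mitochondria among the largest. They are 6 of the 30560 genes in the count table, and 6 of the 6228 nuclear genes with a symbol that had 0 to 2 counts summed over the muscle libraries. Because these values chose them, their difference between these groups is given as a description without a test. All libraries came from wild-type male Wistar Kyoto rats aged 9 weeks. The 6 whole muscle libraries were made from frozen pieces of the red inner gastrocnemius, with no enzyme treatment. The 6 mitochondria libraries were made from fresh pieces of that muscle of the same 6 animals, by immunoprecipitation and then RNaseA and ProteinaseK, so that the effects of enzymes, isolation and freezing cannot be told apart here. RNA input was 50 ng for muscle and 10 ng for mitochondria. In whole tissue, fewer cells of a type and less RNA per cell cannot be told apart.

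The 6 genes are known from organs other than muscle. Muc5b (ENSRNOG00000019846) encodes a gel-forming mucin, a very large glycoprotein that airway glands and secretory cells release as the scaffold of mucus. Tecta (ENSRNOG00000031126) encodes alpha-tectorin, a matrix protein of the tectorial membrane that lies over the sensory hair cells of the cochlea, and Loxhd1 (ENSRNOG00000017410) encodes a protein of repeated PLAT domains that hair cells need for hearing. Fat2 (ENSRNOG00000012575) is a giant protocadherin of the FAT family, described in epidermis and in granule cells of the cerebellum. Pkd1l3 (ENSRNOG00000052310) belongs to the polycystin 1 family of multipass membrane proteins and pairs with Pkd2l1 in sour-sensing taste cells. Sult1c2a (ENSRNOG00000042111) is a cytosolic sulfotransferase, an enzyme that moves sulfate from a donor nucleotide to phenols and other small molecules.

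The libraries were checked first. All 8 muscle fibre markers that the table holds, among them the actin Acta1 and titin, Ttn, had mean levels of 2905 to 75898 CPM in whole muscle. CPM is a gene's count scaled to a common total of all gene counts in its library. All 8 markers were lower in mitochondria (edgeR's quasi-likelihood test). Summed, they took 136268 to 208019 CPM in muscle libraries and 1202 to 3238 in mitochondria libraries. Genes of the mitochondrial genome took 26.4% to 35.9% of counts in muscle and 12.9% to 51.5% in mitochondria, so this marker of the organelle did not set the groups apart. Depth differed widely, with 24309444 to 32055355 counts in a muscle library and 720111 to 1785865 in a mitochondria library.

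The sequence in front of the genes is shown because the members were chosen for being silent in muscle together. The RefSeq promoter table of GRCr8 matched 4 of the 6 members, which are Loxhd1, Fat2, Pkd1l3 and Sult1c2a, and the window of Loxhd1 is not shown or described here. Shown are the 250 bases before the start of Sult1c2a (chr9:7103203-7103452, minus strand), of its copy Sult1c2 (chr9:7436731-7436980, plus strand), of Pkd1l3 (chr19:54494279-54494528, plus strand) and of Fat2 (chr10:39956903-39957152, minus strand), from RefSeq, 5′ to 3′. Capitals mark matches on either strand to 4 motifs: TATAAA as the TATA box, CCAAT as the CCAAT box, GGGCGG as a GC box and CAGCTG as an E-box of the kind that myogenic factors can bind.
Sult1c2a: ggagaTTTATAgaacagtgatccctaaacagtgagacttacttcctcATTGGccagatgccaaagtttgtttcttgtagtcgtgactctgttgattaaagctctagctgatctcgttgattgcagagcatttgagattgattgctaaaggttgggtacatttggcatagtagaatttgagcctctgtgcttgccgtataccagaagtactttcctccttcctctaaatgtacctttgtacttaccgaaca
Sult1c2: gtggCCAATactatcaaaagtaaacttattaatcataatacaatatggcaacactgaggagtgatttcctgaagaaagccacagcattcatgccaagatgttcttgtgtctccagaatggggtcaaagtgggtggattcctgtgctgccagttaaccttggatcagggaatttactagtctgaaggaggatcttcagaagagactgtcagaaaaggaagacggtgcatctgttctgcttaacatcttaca
Pkd1l3: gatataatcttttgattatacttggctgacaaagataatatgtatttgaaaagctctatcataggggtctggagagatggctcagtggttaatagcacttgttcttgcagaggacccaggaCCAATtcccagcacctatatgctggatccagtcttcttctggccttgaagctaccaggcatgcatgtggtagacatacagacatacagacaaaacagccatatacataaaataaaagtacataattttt
Fat2: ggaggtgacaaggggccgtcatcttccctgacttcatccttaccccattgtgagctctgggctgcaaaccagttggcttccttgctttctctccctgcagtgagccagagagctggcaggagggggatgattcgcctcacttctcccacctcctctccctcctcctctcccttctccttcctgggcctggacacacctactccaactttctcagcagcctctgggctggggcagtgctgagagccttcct
Of the 33469 windows of this length in the table, 12.9% held TATAAA, 34.0% CCAAT, 30.5% GGGCGG and 12.0% CAGCTG. Sult1c2a had the TATA letters, far from the start, and a CCAAT box, Pkd1l3 and Sult1c2 had a CCAAT box, and Fat2 had no match. None of the 4 windows shown held GGGCGG or CAGCTG. The share of G and C was 41.2% for Sult1c2a, 42.0% for Sult1c2, 39.2% for Pkd1l3 and 59.2% for Fat2, where the median over all windows was 51.2% (interquartile range 44% to 60%). A match or its absence is only a description of these letters.

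No member was seen in muscle beyond 2 reads. Muc5b, Loxhd1, Tecta, Fat2 and Pkd1l3 had 0 counts in each of the 6 muscle libraries, out of 170841891 counts in all. A count of 0 allows up to 3 counts over the group, which is 0.0176 CPM. Sult1c2a had 2 counts, both in muscle replicate 2. In the mitochondria libraries, which were far shallower, each gene was counted at least 68 times in every library. No member's groups overlapped, as the choice of the genes requires. That was also so for nearly all genes of the lists below, and the share over all genes was not computed.

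Of the secreted proteins, Muc5b had 146 counts in the mitochondria library with the fewest, a median of 192.5 and at most 251. By level this was 121 CPM at the lowest, 153 at the median and 203 at the highest, with a mean of 156 ± 34.9 (SD, n = 6). At that mean the smallest muscle library would hold 3802 Muc5b counts, where 0 were found. Tecta had 83 to 133 counts, with a median of 99, and 50.4, 89.1 and 115 CPM at the lowest, median and highest library. The highest library of both genes was mitochondria replicate 1 and the lowest was replicate 4.

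Loxhd1, the hair cell gene, was counted 132 to 209 times, with a median of 153.5, at 87.4, 121 and 183 CPM in the lowest, median and highest library. Of the membrane proteins, Fat2 had 109 to 177 counts, with a median of 147.5, and 73.9, 113 and 158 CPM. Pkd1l3 had the fewest counts of the 6 genes, 68 to 137 with a median of 98.5, and 53.8, 80.7 and 94.4 CPM. Replicate 1 was again the highest for all 3, and the lowest was replicate 4 for Loxhd1 and Pkd1l3 and replicate 5 for Fat2.

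Sult1c2a, the enzyme, had the most counts of the set. It was counted 230 to 468 times, with a median of 358.5, at 184, 288 and 392 CPM in the lowest, median and highest library. Its highest library by CPM was replicate 3 and its lowest replicate 6, which none of the other 5 members had. Genes outside the set, such as Pkd1l1, Otoa and Zic1, had the same highest and lowest library. Within each library Sult1c2a had 1.51 to 2.10 times the counts of Muc5b, and each of the other 4 genes had fewer counts than Muc5b in all 6 libraries. These counts are not divided by gene length, so that such ratios do not rank the amount of transcript.

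Folds depend on the scaling, and those relative to all counts of the libraries were 4.18 times those relative to TMM-scaled library sizes. With muscle set at the floor of 3 counts over the group, Muc5b was at least 8438-fold higher in mitochondria relative to all counts and at least 2021-fold with TMM. For Pkd1l3, the lowest, these bounds were 4291-fold and 1028-fold. For Sult1c2a the ratio relative to all counts was 22584 (5408 with TMM), with a 95% exact interval of 6244 to 186609 that covers counting error only. Without muscle replicate 2 it too would have no muscle count.

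**Figure D1:**
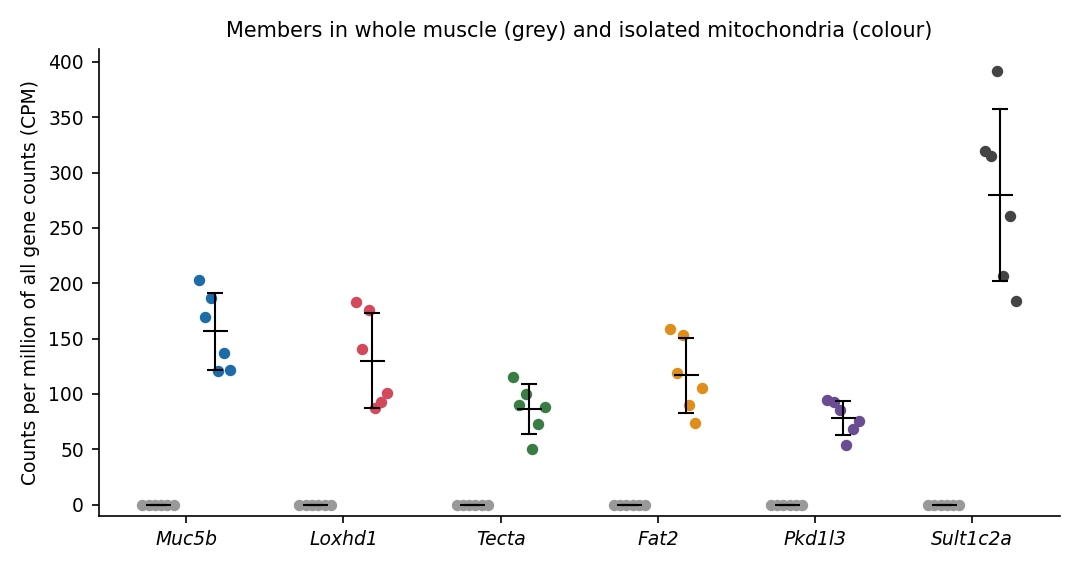
CPM of the 6 genes on the vertical axis in each of 6 whole muscle libraries (grey points) and 6 mitochondria libraries (coloured points), with the mean and SD of each group in black. All muscle points lie at or near 0, and the mitochondria points run from 50.4 CPM for Tecta to 392 CPM for Sult1c2a.

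The choice of members drew on both zero counts and level, and other genes lie close to its edge. Ranked by mean CPM in mitochondria among the 6228 genes with a symbol and at most 2 muscle counts, Sult1c2a was at place 1, Muc5b at 3, Loxhd1 at 4, Fat2 at 6, Tecta at 16 and Pkd1l3 at 20. The 14 genes between them that are not members each had 1 or 2 muscle counts. They include Sult1c2 at place 2 (168 ± 54.3 CPM in mitochondria), Gm9195 (118 ± 32.8), Ksr2, a kinase scaffold of nervous tissue (116 ± 40.2), Pkd1l2, a close relative of Pkd1l3 (113 ± 30.04), Apob, the apolipoprotein of liver and gut (103 ± 25.8), and Otof, the otoferlin of hair cells (103 ± 33.0). Just inside, Pkd1l3 had 78.4 ± 15.6 CPM. Just outside, Mroh2b had 73.1 ± 23.3, Tdrd9 72.7 ± 12.0 and Mei1 72.4 ± 10.0 CPM, with 1 or 2 muscle counts each. No step in level separates the members from these genes.

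The genes with the most similar profile were found by the root mean square difference of log2(CPM + 1) over the 12 libraries. Pkd1l3 was closest to Kndc1 (0.06) and Efcab8 (0.10), and Tecta to Efcab8 (0.11) and Pkd1l3 (0.13). Muc5b was closest to Efcab3 (0.13) and Dnah3 (0.13), and Fat2 to Ksr2 (0.12) and Loxhd1 (0.15). For Loxhd1 these were Fat2 (0.15) and Ksr2 (0.16), and for Sult1c2a Spetex-2E (0.12) and Lrp2 (0.26). Muscle counts of these genes ran from 0 to 17, and all points share the libraries and their depth.

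Among mitochondria libraries the members varied less as a share of nuclear counts than as a share of all counts. Together they took 0.0609% to 0.109% of all counts there. As a share of nuclear counts alone, they took 0.119% at the lowest, 0.126% at the median and 0.135% at the highest library, with a mean of 0.126% ± 0.00584 (SD, n = 6). The spread of each single member was smaller too. The coefficient of variation over the 6 libraries was 22.3% by CPM of all counts and 7.15% by CPM of nuclear counts for Muc5b, which is close to the 7.29% that counting error alone gives. It fell from 32.8% to 13.0% for Loxhd1, from 26.0% to 14.9% for Tecta, from 28.97% to 14.8% for Fat2, from 19.9% to 10.96% for Pkd1l3 and from 27.8% to 11.4% for Sult1c2a, where counting error gives 5.48%. Over the 760 nuclear genes with 592 to 2077 counts in mitochondria, the range the members span, the median of this coefficient was 9.98% (interquartile range 7.64% to 12.4%) by nuclear counts. Of the members only Muc5b lay below that median. The fall was not particular to the members: it was from 21.7% to 2.59% for Pkd1, 21.5% to 3.78% for Adgrv1 and 22.5% to 4.20% for Strc. Other genes rose, such as Acta1 from 14.0% to 23.8% and Lhfpl5 from 15.9% to 27.0%. CPM of all counts divides every nuclear gene by totals whose mitochondrial genome share ran from 12.9% to 51.5%.

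Whether members moved with the share of the mitochondrial genome was tested among the mitochondria libraries, a measure that did not enter their choice. The slope was fitted with edgeR's quasi-likelihood test on nuclear counts over 21039 nuclear genes, and 0.0285% of them had a positive slope and 0.00475% a negative one at an adjusted p under 0.05. No member passed (edgeR adjusted p = 0.999 for each). The slope of Muc5b was 0.02 ± 0.04 on the log2 scale for each 10 percentage points of mitochondrial genome share (SE, 95% interval -0.07 to 0.10). That of Tecta was -0.01 ± 0.05 (-0.11 to 0.10), that of Fat2 -0.02 ± 0.05 (-0.11 to 0.07), that of Pkd1l3 0.04 ± 0.05 (-0.07 to 0.15) and that of Sult1c2a -0.03 ± 0.04 (-0.10 to 0.03). Loxhd1 had the steepest slope of the 6, -0.09 ± 0.04 (-0.17 to -0.00063). It was the one member with an unadjusted p under 0.05, a level that 4.85% of all nuclear genes reached. These intervals do not show that the genes were constant.

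**Figure D2:**
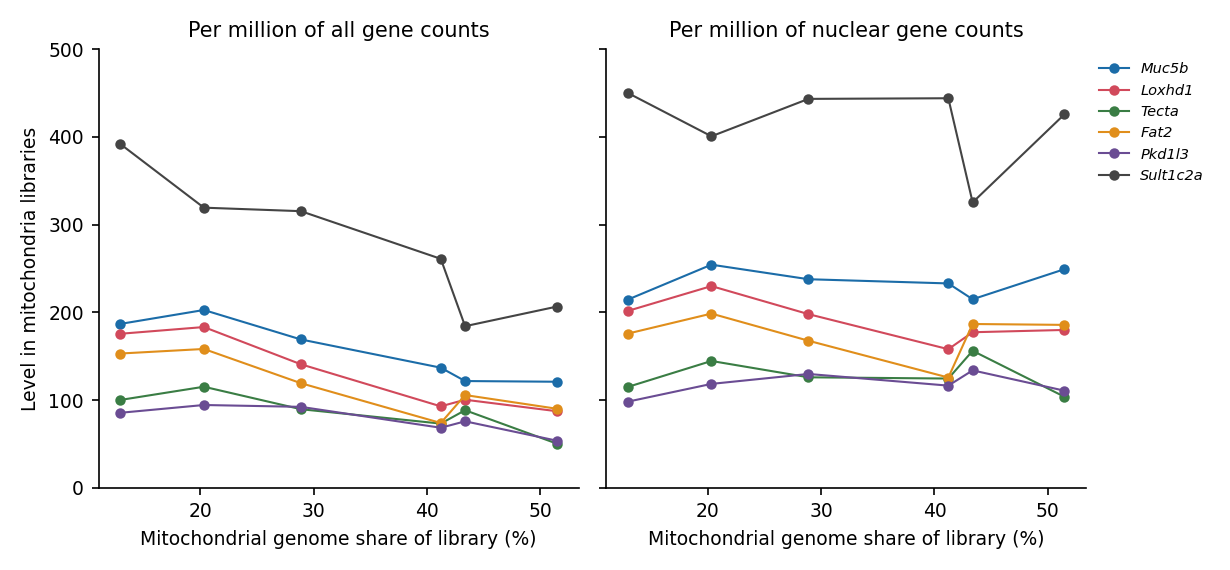
Level of the 6 genes in each mitochondria library against the share of its counts that came from the mitochondrial genome, on the left as CPM of all gene counts and on the right as CPM of nuclear gene counts. Each line joins the 6 libraries of a gene, and levels at the high-share end are lower in the first panel. In the second Muc5b runs between 215 and 254, while Loxhd1 runs from 198 to 230.0 in the 3 libraries of lowest share and from 158 to 180.0 in the other 3.

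The next question was whether genes that work with the members, or mark the organs they are known from, showed the same difference. Here 8 lists with 105 genes were used, of which 93 rows are in the table, none of them a member. In mitochondria 92 of these rows had a count in all 6 libraries, while 30 had no count in any muscle library. Of 91 tested, 82 were higher in mitochondria, 7 were lower and 2 did not pass (edgeR on TMM-scaled counts, Benjamini-Hochberg adjustment over 24679 genes). Of these, 28 had no muscle count, so that they were tested only for their counts in mitochondria and could only be called higher. Of the other 63, 54 were higher and 7 lower, or 85.7% and 11.1%. Many of these 63 had very low muscle means, such as Adgrv1 at 0.102, Otog at 0.0825 and Trpm5 at 0.0624 CPM. Those too were tested only for their counts in mitochondria and are subject to the same limit. Of all genes tested 63.0% were higher and 30.3% lower, but these shares still include genes with no muscle count. The shares are thus not alike, and no conclusion is drawn from their difference. The lists were drawn up for the families of the members and the organs they are known from. The median log2 fold change over all genes tested was 2.51. With total counts as scaling that median was 4.61, 20795 genes were higher and 2228 lower, and none of the 7 list genes stayed lower. With all libraries thinned to 573903 nuclear counts, 3 mucins, 4 airway markers, 5 granule cell markers and 4 sulfotransferases were still called higher.

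For the mucins, all 5 tested rose, 4 of them without a muscle count, where 63.0% of all genes tested rose. None had a muscle mean above 0.0193 CPM, so that these too could only be called higher. Their median log2 fold change was 9.31, or 8.07 with genes without muscle counts set at their bound. Muc6, a gel-forming mucin of the stomach that lies in the same gene cluster as Muc5b, had no muscle count and 70.8 ± 21.4 CPM in mitochondria, at least 3806-fold higher relative to all counts and at least 911-fold with TMM. Muc1, a membrane mucin of many epithelia, had 3 muscle counts and 28.96 ± 10.7 CPM in mitochondria, a ratio relative to all counts of 1515, or 363 with TMM (for the first, 95% exact interval 511 to 7406, counting error only). The gel-forming mucins Muc5ac and Muc2 were not matched by name and are not analysed here. In the list of airway secretory and ciliated markers, Foxj1, its ciliated cell marker, was not matched by name and not tested. The 12 others, surfactant genes of the lung among them, all rose (median 7.76, or 6.73 at the bound), where 63.0% of all genes tested rose. None had a muscle mean above 0.0597 CPM. They thus passed the filter only by their counts in mitochondria and could only be called higher. Their summed level was 0.0411 to 0.259 CPM in muscle and 151 to 242 in mitochondria, and 6 of the 12, including Scgb1a1, the defining secretoglobin of club cells, had no muscle count. Bpifb1, a secreted airway protein, had 0.0214 ± 0.0393 CPM in muscle and 35.6 ± 7.34 in mitochondria. Sftpd, a surfactant protein of the lung, went from no count to 28.5 ± 6.75, and Spdef, a transcription factor of goblet cells, from 0.0597 ± 0.0315 to 15.1 ± 3.13. The part of airway cells in the level of Muc5b was not tested.

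Of 31 inner ear genes, 30 rose, or 96.8% beside 63.0% of all genes tested, and Ceacam16 did not pass (median log2 fold change 7.42, or 7.04 at the bound). Genes with no or very low muscle counts, such as Otof at 0.00617 and Pcdh15 at 0.0177 CPM, passed the filter only by their counts in mitochondria. Such genes could only be called higher, and no conclusion is drawn from the difference of these shares. Adgrv1, a giant adhesion receptor that links the stereocilia of hair cells, had 0.102 ± 0.0848 CPM in muscle and 207 ± 44.5 in mitochondria. Strc, the stereocilin of hair bundle tops, had no muscle count and 66.8 ± 15.1 CPM in mitochondria, at least 3603-fold higher relative to all counts and at least 863-fold with TMM. Ceacam16, which like Tecta is a component of the tectorial membrane, went from 1.80 ± 0.706 to 12.5 ± 7.74 CPM, with a log2 fold change of 0.53 ± 0.29 (SE, edgeR adjusted p = 0.0776) and 2.67 with total counts as scaling (edgeR adjusted p = 1.20e-11). The list summed to 21.6 to 32.2 CPM in muscle and 1278 to 2503 in mitochondria, with 8 of 31 genes at 0 in muscle, among them Atoh1 and Pou4f3, defining transcription factors of hair cells. The part of inner ear cells was not tested.

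The list named Fat and Dachsous cadherins, genes of planar cell polarity, holds Fat1, Fat3, Fat4, Dchs1 and Dchs2. It also holds Celsr1, Celsr2 and Celsr3, cadherins of another family, and Fjx1, which is not a cadherin. Of its 9 genes 5 rose and 3 fell (median 1.40), which is 55.6% and 33.3% and near the shares of all genes tested. The 3 that fell were all Fat or Dachsous genes. Celsr3, a cadherin of axon guidance, went from 0.0908 ± 0.0526 CPM in muscle to 122 ± 33.4 in mitochondria, and Fat3 from 2.91 ± 0.690 to 134 ± 25.6. Fat1, Fat4 and Dchs1, at 60.6 ± 5.76, 42.7 ± 9.93 and 42.3 ± 8.78 CPM in muscle, had log2 fold changes of -1.16, -0.87 and -1.31 and were called lower with TMM. Their CPM in mitochondria were nonetheless higher, at 121 ± 33.3, 103 ± 27.99 and 73.0 ± 10.4, and with total counts as scaling all 3 were called higher. Among the polycystins 5 of 7 rose and 2 fell (median 5.03), or 71.4% and 28.6%, also near the shares of all genes. Pkd2l1, the channel partner of Pkd1l3, had 2.50 ± 0.555 CPM in muscle and 50.7 ± 20.3 in mitochondria. Pkd1l2 had 1 muscle count and 113 ± 30.04 CPM in mitochondria. Pkd1 and Pkd2, the genes of polycystic kidney disease, had 83.5 ± 8.39 and 36.2 ± 3.76 CPM in muscle and 150 ± 32.6 and 43.6 ± 10.1 in mitochondria. With TMM they were called lower (log2 fold changes -1.29 and -1.84), and with total counts Pkd1 was called higher (0.83) and Pkd2 did not pass (0.25, edgeR adjusted p = 0.155).

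All 10 cerebellar granule cell markers rose (median 6.91, or 6.83 at the bound), where 63.0% of all genes tested rose. Those with no or very low muscle counts, such as Cbln1 at 0.0718 and Pax6 at 0.0241 CPM, could only be called higher. They ran from Etv1 (3.52 ± 0.488 CPM in muscle, 36.2 ± 6.27 in mitochondria) to the transcription factor Barhl1 (no muscle count, 20.4 ± 5.79 CPM). Reln, the secreted reelin of granule cells, was the most counted, at 3.69 ± 1.76 and 146 ± 33.6 CPM. Summed, they had 5.22 to 9.38 CPM in muscle and 231 to 405 in mitochondria. Of 6 taste cell markers 5 rose, or 83.3% beside 63.0% of all genes tested (median 5.33). Tas1r1, a subunit of the umami receptor, was called lower with TMM, at -0.59, and higher with total counts, at 1.51. Its CPM were 7.94 ± 0.750 in muscle and 23.4 ± 6.51 in mitochondria. Trpm5, the cation channel of sweet, bitter and umami taste cells, went from 0.0624 ± 0.102 to 63.5 ± 17.5. The list summed to 8.31 to 10.7 CPM in muscle and 150 to 286 in mitochondria. At 0 in muscle were 3 of the 10 granule cell markers, including Gabra6 and Neurod1, and none of the taste markers. The part of such cells was not tested.

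The sulfotransferases other than Sult1c2a rose in 10 of 11 cases, or 90.9% beside 63.0% of all genes tested. Of the 11, 7 had no muscle count and could only be called higher. The median log2 fold change of the 11 genes was 8.44, or 7.24 at the bound. Sult1c2 had the most counts of them in mitochondria, with 2 muscle counts, both in replicate 1, and 168 ± 54.3 CPM in mitochondria, a ratio relative to all counts of 13353, or 3198 with TMM (for the first, 95% exact interval 3689 to 110381, counting error only). Sult1c2a and Sult1c2 are close copies, and the sources used here do not say how reads that match both were counted, so that the count of each is uncertain. Sult1a1, the widely expressed phenol sulfotransferase, was the one called lower with TMM, at -0.70 (edgeR adjusted p = 0.00119), and it was called higher with total counts, at 1.36. It had 5.51 ± 1.26 CPM in muscle and 14.0 ± 3.41 in mitochondria.

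**Figure D3:**
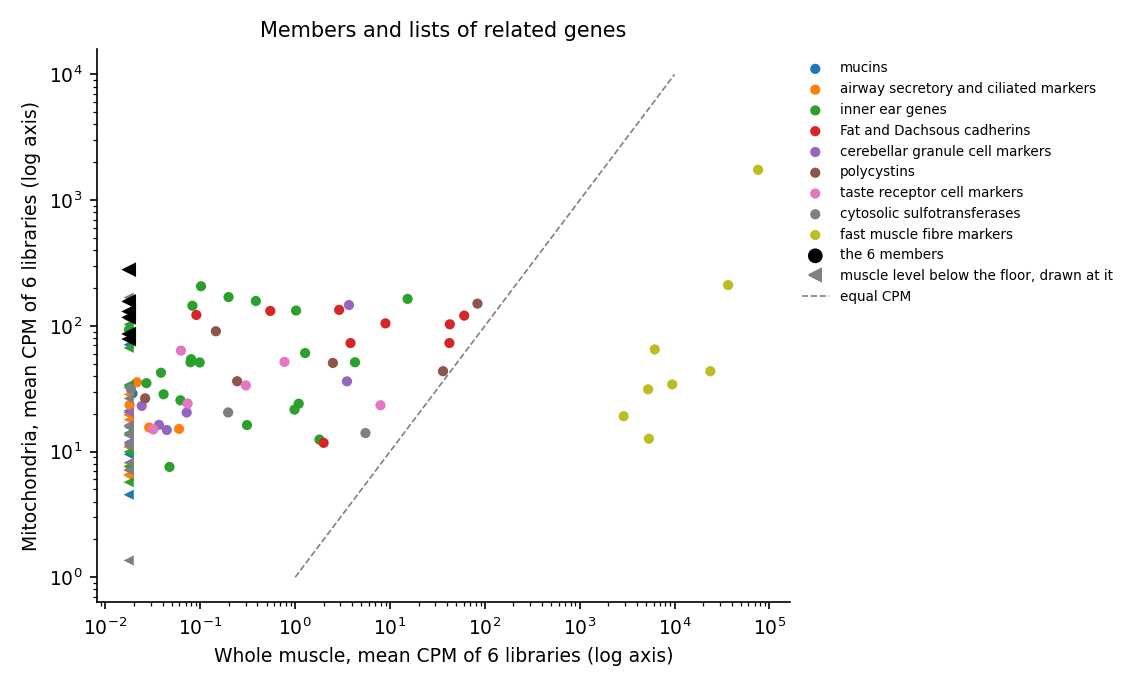
Mean CPM of 6 libraries in whole muscle (horizontal, log axis) and in mitochondria (vertical, log axis) for the members in black and for the genes of 9 lists in colour, with levels under the floor of 0.0176 CPM drawn at it as triangles. The members sit at the floor of the muscle axis. Pkd1 (83.5 CPM) is the list gene with the highest muscle level outside the muscle fibre markers, which are labelled fast muscle fibre markers. Those markers alone lie below the dashed line of equal CPM.

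The members' neighbours on the chromosome were compared next. For each member the nearest protein-coding gene on either side was taken from the RefSeq table of GRCr8, if its symbol was in the count table. Of these 12 genes 7 were called higher in mitochondria and 4 lower (median log2 fold change 0.74), or 58.3% and 33.3%, near the 63.0% and 30.3% of all genes tested. Muc6 and Sult1c2 are both neighbours and relatives.

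Sparc, a collagen-binding matrix protein and the neighbour of Fat2, had 634 ± 225 CPM in muscle and 45.0 ± 5.84 in mitochondria. Its log2 fold change was -5.91 (edgeR adjusted p = 1.90e-22), or -3.83 with total counts, while Slc36a1, an amino acid carrier on the other side of Fat2, went from 4.78 ± 0.948 to 34.5 ± 11.8. Beside Muc5b, the signalling adaptor Tollip had 20.5 ± 1.97 CPM in muscle and 43.3 ± 9.23 in mitochondria. St8sia5, a sialyltransferase next to Loxhd1, had 21.4 ± 4.67 and 19.5 ± 6.57, and Haus1, a spindle protein on its other side, 4.03 ± 0.242 and 32.2 ± 12.7. St8sia5 and Tollip were called lower with TMM, at -2.25 and -1.05. With total counts St8sia5 did not pass (edgeR adjusted p = 0.440) and Tollip was called higher, at 1.05.

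Around Tecta, the sterol enzyme Sc5d had 4.85 ± 0.761 CPM in muscle and 18.7 ± 5.06 in mitochondria and did not pass (edgeR adjusted p = 0.300), and Tbcel, a protein related to tubulin cofactors, had 6.99 ± 1.19 and 59.5 ± 13.1. Around Pkd1l3, Dhodh, the pyrimidine enzyme of the inner mitochondrial membrane, had 3.94 ± 0.489 and 54.9 ± 11.9, and the membrane-remodelling protein Ist1 21.2 ± 2.00 and 34.7 ± 9.10, called lower with TMM (-1.41) and higher with total counts (0.69). Pkd1l3 and Ist1 overlap in GRCr8, and without a known strand setting reads there cannot be assigned with certainty. In muscle Ist1 had 3645 counts and Pkd1l3 0. Sgo1, a guardian of chromosome cohesion beside Sult1c2a, had 0.199 ± 0.0372 and 21.2 ± 5.94. Between Sult1c2a and Sult1c2 GRCr8 holds 4 further protein-coding genes, and 0 of them have their symbol in the count table. In muscle the 12 neighbours thus ranged from 0 to 634 CPM and in mitochondria from 18.7 to 168.

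**Figure D4:**
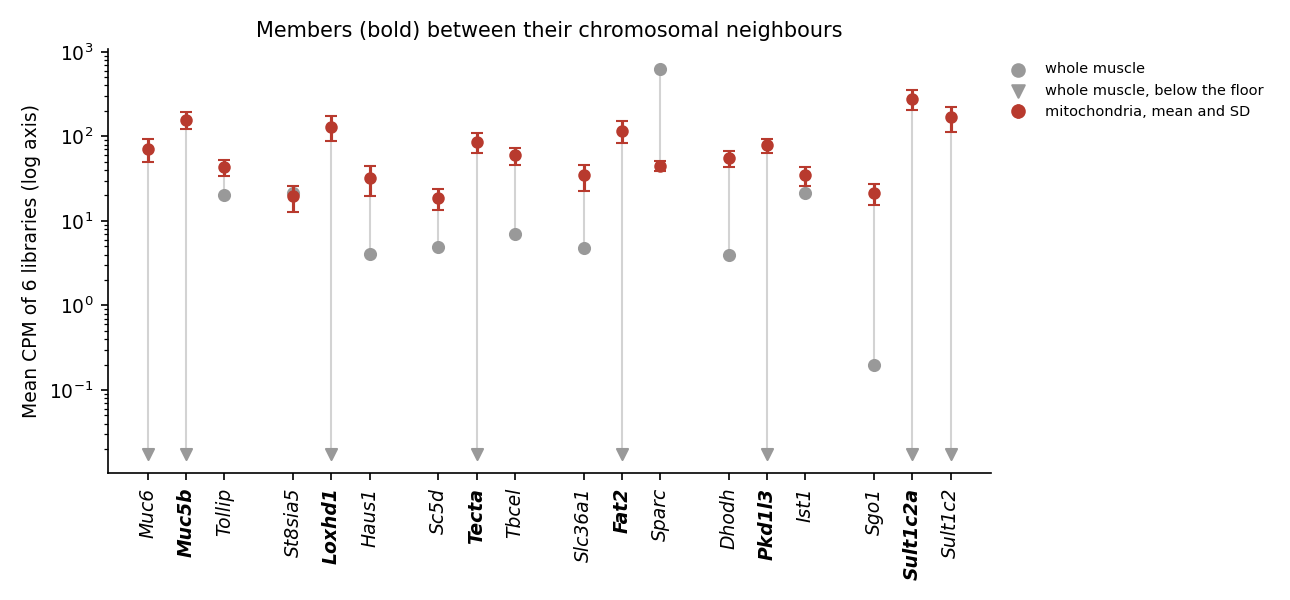
Mean CPM of 6 libraries (log axis) of each member, in bold, between its nearest neighbours, in whole muscle (grey) and in mitochondria (red, with SD); triangles mark muscle levels under the floor. Red points lie between 18.7 and 280 CPM, while grey points run from under the floor to 634 CPM for Sparc.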

How the data were processed

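Total RNA of 6 whole muscle and 6 mitochondria samples was sequenced after depletion of ribosomal RNA, per the labels' protocols. The values are the raw gene counts that the authors deposited for all 12 libraries. Tools named are HTSeq, STAR 2.7.11a, cutadapt 4.6 and FastQC 0.74, on the mRatBN7.2 build, per the submitters' processing notes. Strand setting and multi-mapping rule: not given in the sources used here. Muscle and mitochondria of a replicate number carry the same animal number in the labels. Deviations of same-animal libraries from their group means correlated at -0.0080 to 0.020 over genes, and for 2 of 6 animals the highest correlation was that with the same animal. The reported tests have no animal term.

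Genes were tested with edgeR 4.0.16 in R 4.3.3 (filterByExpr with a minimum count of 10, TMM, glmQLFit and glmQLFTest, Benjamini-Hochberg adjustment, threshold 0.05), with mitochondria over muscle as the log2 fold change, and standard errors as the absolute estimate over the square root of F. The slope fit took nuclear genes of the 6 mitochondria libraries. Nuclear genes were all but the 37 with the name prefix Mt- or AY172581. CPM were computed from all gene counts of a library. A gene with no muscle count was set at a floor of 3 counts over the group for bounds. The code was tested on simulated data. Intervals and floors cover counting error only.

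The members, lists and neighbours were chosen with earlier results of these data known. Named are the members, the 2 genes most like each, the most counted, most raised and most lowered gene of each list, all neighbours, and genes at the edge of the choice; further genes, such as Scgb1a1, Atoh1, Pou4f3, Gabra6, Neurod1, Pkd2l1, Fat1 and Fat4, were added after their values were seen. Of 115 list genes 100 were matched by name. Alternatives were RLE factors, total counts, nuclear genes alone, DESeq2 1.42.0, no filter, counts thinned to 573903 nuclear counts, an animal block and each library left out. A planned comparison of level with coding length was not made, as lengths for this build were not used here.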

Additional observations from a re-analysis of the deposited data

Results flagged for a closer look

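A sample far from the other 5 of its group was looked for in 105 sets of 6 values. Chance flags about 1 in 20 of such sets only where values are normally distributed. The rule always flags a gene counted in 1 muscle library alone and never flags a gene with no muscle count. For the members in muscle its outcome was thus fixed by their counts. Among the members only Sult1c2a in muscle was flagged, with 0.0650 CPM (2 counts) in replicate 2 and 0 in the others. Its copy Sult1c2 had 0.0665 CPM in muscle replicate 1 and 0 in the others, and Pkd1l2 had 0.0370 CPM (1 count) in muscle replicate 6. Further muscle values were 0.0974 CPM of Bpifb1 in replicate 2 (3 counts), 0.259 CPM of Trpm5 in replicate 6 (7 counts), 43.5 CPM of Pkd2 in replicate 3 (median 34.9) and 1068 CPM of Sparc in replicate 6 (median 604). In mitochondria replicate 4, which had the highest share of mitochondrial genome counts, Dchs1 was low at 52.6 CPM (median 75.9), Etv1 at 24.1 (median 38.3), Sgo1 at 9.52 (median 22.4) and Tdrd9 at 49.8 (median 75.1). In mitochondria replicate 3, which had the lowest share, Spdef was high at 21.4 CPM (median 14.2).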

How the results depend on the processing

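With total counts as scaling, 20795 genes were higher and 2228 lower, and the median over all genes was 4.61. The list of Fat and Dachsous cadherins, with the Celsr genes and Fjx1, then had 9 higher and 0 lower. The neighbours had 1 lower, and polycystins, taste markers and sulfotransferases had 0 lower. Taste markers and sulfotransferases also had 0 lower with RLE factors and in DESeq2. With thinned nuclear counts, where fewer genes were tested, 8510 genes were higher and 4085 lower, with 3 mucins, 4 airway markers, 5 granule cell markers and 4 sulfotransferases higher, and 0 cadherins, 1 polycystin, 0 taste markers, 0 sulfotransferases and 2 neighbours lower. The animal as a replicate block gave 15512 higher and 7426 lower, beside 15544 and 7470 without it, and the counts of every list as without it. Leaving out single libraries gave 15470 to 15574 higher and 7387 to 7500 lower, 30 to 31 inner ear genes higher, and no other change in a list count.

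For the slope on mitochondrial genome share, 6 genes were positive and 1 negative. DESeq2 gave 1 and 0, and leaving out replicates 3 and 4, whose shares lay farthest from the median, gave 1 positive. Leaving out single libraries gave 3 to 8 positive and 0 to 1 negative, with 3 positive without replicate 3 or 4 and 0 negative without replicate 4. No member passed under any of the 11 alternatives. Without replicates 3 and 4 the slope of Muc5b was -0.0805 and that of Tecta 0.0259. Over the 11 alternatives the slope of Loxhd1 ran from -0.193 to -0.0640. That of Fat2 ran from -0.119 to 0.0127 and that of Sult1c2a from -0.0713 to -0.00048. Single libraries left out gave -0.0207 to 0.0356 for Muc5b, -0.0755 to 0.0717 for Tecta, -0.0753 to 0.0127 for Fat2 and -0.0275 to 0.0932 for Pkd1l3, so that these signs depend on single libraries. Except where the number of genes tested differs, the cause of these changes was not tested. Fitted fold changes of the members depend on the prior count and are not printed. At the depth of the mitochondria libraries the counting error, averaged over the 6 libraries, ran from 5.48% for Sult1c2a to 10.3% for Pkd1l3. In single libraries it was larger or smaller with their depth. Other settings for the comparison of level with coding length were not run, since that comparison was not made.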
